A study of Mus musculus with 2 samples.

Results

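The cytosolic ribosomal protein genes were followed as 1 module in single cells of mouse ileal enteroids. Members were all genes listed in both count tables whose symbol begins with Rpl or Rps and a digit, together with *Rplp0*, *Rplp1*, *Rplp2* and *Rpsa*, and without the S6 kinases (*Rps6k* symbols) and *Rps27l*. The rule found 89 members among the 15182 genes that both tables list, 55 with large subunit and 34 with small subunit symbols, and no symbol of the rule stood in 1 table only. Of the 89, 12 are paralogs, retrogenes, pseudogenes or, in the case of *Rps19bp1*, the gene of a protein that binds *Rps19*, and the other 77 encode the ribosomal proteins themselves. The members were chosen by name and not by their values.

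The study asked how loss of *Taf4*, which belongs to TFIID, a complex that starts transcription by RNA polymerase II, affects the intestinal epithelium. Enteroids, which are small epithelial structures grown from crypts in a gel, were established from the ileum of mice 4 months old on a C57Bl6/129sv background. The library of the mutant group is labelled as KO treated with 4OHT, and below it is called the library labelled *Taf4IEC*, after the study's name. The group called *Taf4IEC* carries *Taf4* alleles flanked by lox sites and the inducible recombinase CreERT2 under the villin promoter (*Taf4lox/lox::VilCreERT2*), which is active in the intestinal epithelium. It was treated with 1 µM 4-hydroxytamoxifen (4-OHT) for 3 days, and live cells were sorted and captured in droplets for counting of unique molecular identifiers (UMIs, 1 for each captured transcript) at the 3′ end. The control is labelled as WT treated with ethanol, whereas the methods of the study describe *Taf4lox/lox* enteroids without Cre that received 4-OHT, so the control genotype and vehicle are given here as the sources give them. Each group had 1 library, so no test between groups was possible, and all intervals below are 95% intervals that cover counting error only.

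A ribosome holds a large and a small subunit, each built on ribosomal RNA from a single copy of most of its proteins. The cell therefore makes these proteins at closely matched rates, and their mRNAs, short and very abundant, are known to be translated together. Most of these mRNAs begin with a C followed by a run of pyrimidines, the terminal oligopyrimidine (TOP) motif, through which growth signals act on their translation. In the intestine, dividing crypt cells are known for high ribosome production.

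The start regions of 6 members are printed because they include *Rps2* and *Rps18*, which had the highest ratios between the libraries, *Rpl12* and *Rpsa*, which had ratios among the lowest, and *Rps6* and *Rpl38*, which carry the run of pyrimidines at the start. The sequences are from RefSeq on build GRCm38.p6, the patched form of the mm10 build that the authors used, and hold 40 bases before the start site and 20 from it, read along the gene. They lie at chr17:24720023-24720082 (plus strand, *Rps2*), chr17:33955646-33955705 (minus strand, *Rps18*), chr2:32961672-32961731 (plus strand, *Rpl12*), chr9:120127726-120127785 (plus strand, *Rpsa*), chr4:86857348-86857407 (minus strand, *Rps6*) and chr11:114668540-114668599 (plus strand, *Rpl38*). The sites used for *Rps2* and *Rpl38* lie inside the RefSeq spans of these genes (chr17:24718121-24721927 and chr11:114667818-114672333), downstream of their first base. The first bases of these spans are not printed. Capitals mark the longest run of C or T within 15 bases of the start site.
Rps2: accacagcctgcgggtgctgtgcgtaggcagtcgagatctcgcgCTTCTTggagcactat
Rps18: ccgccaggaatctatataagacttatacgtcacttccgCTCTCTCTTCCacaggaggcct
Rpl12: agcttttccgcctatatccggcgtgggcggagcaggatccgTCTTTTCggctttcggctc
Rpsa: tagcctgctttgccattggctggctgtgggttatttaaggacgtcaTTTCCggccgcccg
Rps6: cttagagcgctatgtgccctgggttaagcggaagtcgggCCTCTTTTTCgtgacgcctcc
Rpl38: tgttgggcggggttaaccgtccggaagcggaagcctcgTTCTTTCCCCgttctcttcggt

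Promoters of 62 of the 89 members were in the reference table, 72 promoters in all, each with 250 bases before and 50 after the start. A run of at least 8 pyrimidines within 15 bases of the start stood in 27 of the 72, or 37.5%, against 12.0% of all 32851 promoters. A C at the start followed by C or T at the next 4 positions, as in *Rps18*, *Rps6* and *Rpl38*, stood in 19.4% against 2.51%. This count needs the annotated start to be exact to the base. In *Rpl12*, for example, the run began 1 base after it and was not counted. Members without this feature may therefore still have a TOP motif. The letters CCGGAAG, read on both strands, stood in 34.7% against 8.86%, AAGATGG in 16.7% against 6.34%, and TATAAA in 9.72% against 13.6% (CCGGAAG and AAGATGG can share 3 letters). The median log2 ratio between the libraries was -0.42 for the 26 members with the run of at least 8 and -0.41 for the 36 without it. It was -0.53 for the 14 members with the C start and -0.39 for the other 48, and -0.34 for the 24 members with CCGGAAG and -0.48 for the 38 without it, with quartiles that overlapped in each case. *Rpl29*, *Rpl3*, *Rpl8*, *Rplp1*, *Rps14* and 22 other members had no entry.

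*Taf4* itself was looked at first. The control library held 278 *Taf4* UMIs, 0.0696 per 10000 UMIs (0.0617 to 0.0783), and the library labelled *Taf4IEC* held 236, or 0.0944 per 10000 (0.0828 to 0.107), so that the count did not go with the label. Reads at the 3′ end need not cover the deleted part of the gene, and where the deletion lies was not analysed here. The control library had 39947009 UMIs in 2563 cells with a median of 16749 per cell, and the library labelled *Taf4IEC* had 24990128 in 1811 cells with a median of 2254, because 49.1% of its cells held under 2000 UMIs against 17.3% in control. Mitochondrial genes took 7.44% and 8.20% of UMIs, and *Malat1*, *Gm42418* and *AY036118* together 0.697% and 1.18%. Of 12 markers of immune, stromal, endothelial and red blood cells, 4 and 5 had any UMI, 38 and 78 UMIs in all, with *Lyz2* at 18 and 60, *Pecam1* at 13 and 11, and *Ptprc*, *Acta2* and *Hba-a1* at 0 in both. The libraries shared 2 cell barcodes.

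Ribosomal protein genes took a smaller part of the transcriptome in the library labelled *Taf4IEC* than in control. In control they held 13526961 of all UMIs, or 33.9%, and the median cell was at 35.6%, with quartiles of 32.3% and 38.5%. In the library labelled *Taf4IEC* they held 6251761 UMIs, or 25.02%, and the median cell was at 26.7%, with quartiles of 22.6% and 29.4%. The log2 ratio of the shares, *Taf4IEC* over control, was -0.44 (-0.44 to -0.44). The ranges between the quartiles did not overlap, whereas the 5th to 95th percentiles (18.9% to 42.0% and 13.1% to 34.2%) did. Since shares add to 1 within a library, a lower share here stands beside higher shares elsewhere, and the median log2 ratio of all 9997 genes that reached 200 UMIs in the libraries together was 0.16.

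The lower share was present at each depth of the cells. Among cells of 500 to 999 UMIs, 216 control cells had a pooled share of 35.4% and 660 cells of the library labelled *Taf4IEC* 26.0%. Among the deepest, at 30000 to 69999 UMIs, the shares were 33.1% in 131 and 25.2% in 446 cells. Over the 7 depth bins control ranged from 31.0% to 36.0% and *Taf4IEC* from 22.8% to 26.3%, so the bins of the libraries did not overlap. The log2 ratio was lowest at 10000 to 19999 UMIs (-0.62) and nearest to 0 at 5000 to 9999 UMIs (-0.28), the bin that in *Taf4IEC* held only 70 cells. Mitochondrial UMIs took 4.38% in the shallowest and 7.96% in the deepest control bin and 3.56% and 8.65% in those of *Taf4IEC*, and the share of *Malat1*, *Gm42418* and *AY036118* was higher in *Taf4IEC* in all 7 bins. Their part in the result was not tested, but with these genes left out of the total the ratio over all cells was -0.42.

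**Figure D1:**
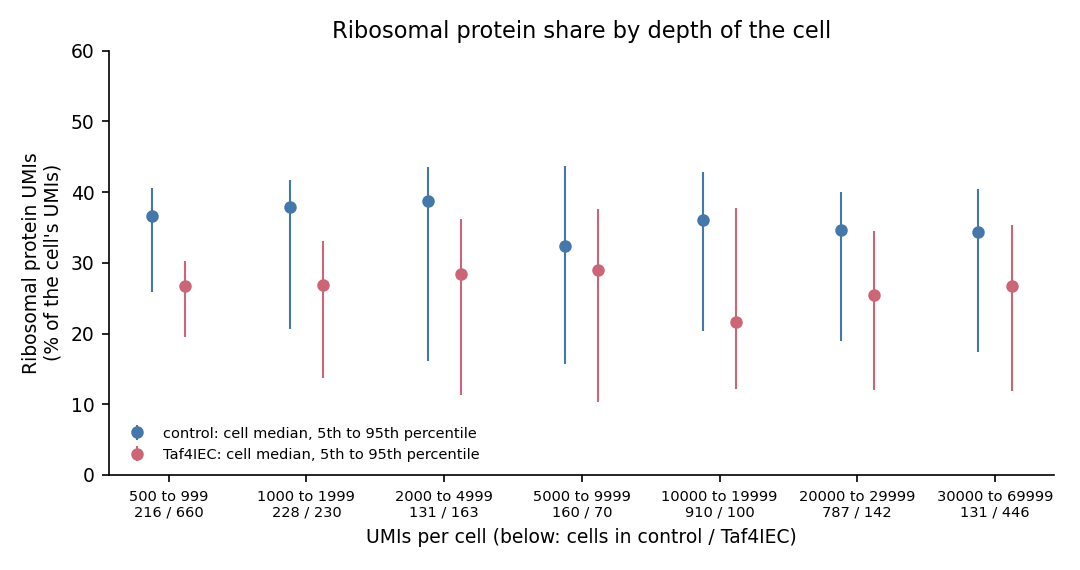
Ribosomal protein UMIs as a percent of each cell's UMIs, by depth of the cell, for the control (blue) and *Taf4IEC* (red) libraries. Points are medians over cells and bars span the 5th to the 95th percentile; the red median lies under the blue one in each of the 7 bins.

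A lower share was found for most members. Of the 87 members that reached 200 UMIs, 79 had a lower share in *Taf4IEC*, against 34.7% of all genes, and the median log2 ratio was -0.45. For 34 of the 87 the log2 ratio was at or below -0.5 (9.2% of all genes), and for 3 it was at or above 0.5 (20.5% of all genes). As a comparison among abundant transcripts, the 101 other genes with at least 50000 UMIs had a median of 0.17, and 27 of them were below 0. The 77 genes without copies had a median level of 42.8 per 10000 UMIs in control and 31.7 in *Taf4IEC*. Each UMI stands for 1 captured molecule whatever the length of the transcript, so these levels were not scaled by length. Members with higher control levels tended to have lower ratios: across the 77 genes, Pearson's r was -0.51 and Spearman's rho -0.60, a description over genes that share both libraries and whose ratio contains the control level.

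**Figure D2:**
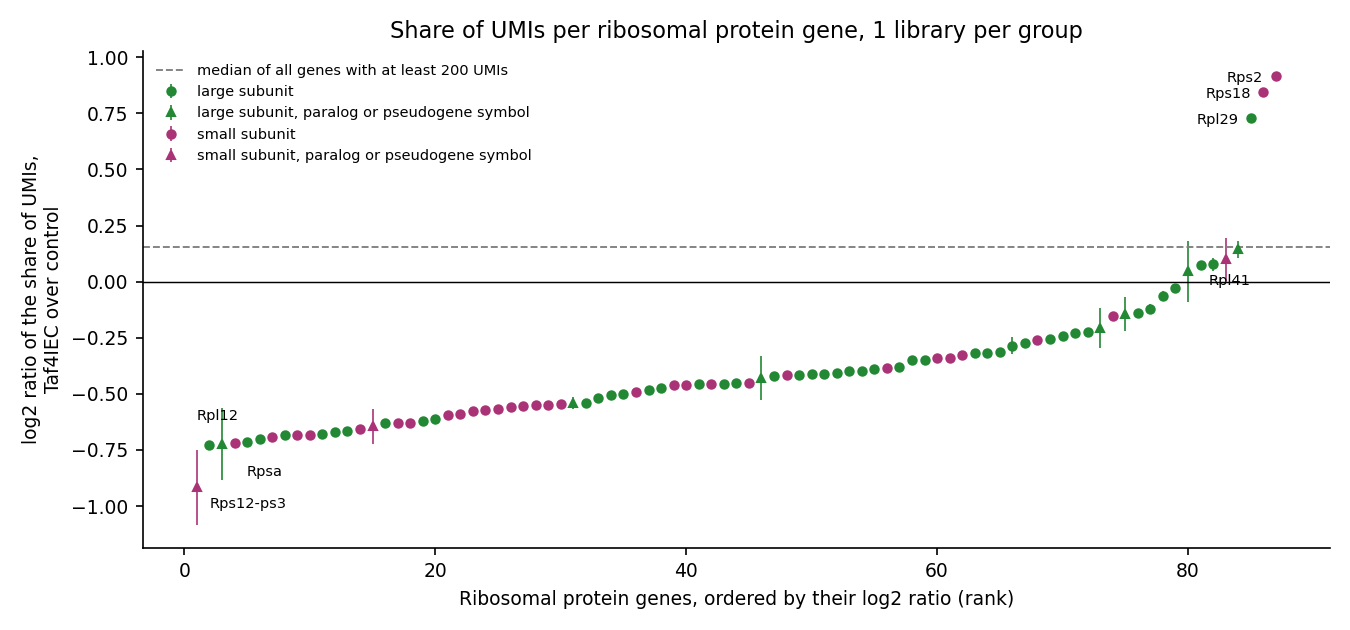
The log2 ratio of each ribosomal protein gene's share of UMIs, *Taf4IEC* over control, for the 87 members with at least 200 UMIs, in rank order, with 95% intervals for counting error. Points below 0 are 79 of the 87, *Rps2*, *Rps18* and *Rpl29* lie at 0.92, 0.85 and 0.73, and the dashed line marks the median of all genes at 0.16.

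Both subunits had lower shares. Large subunit genes held 19.1% of control UMIs and 14.2% in *Taf4IEC*, and small subunit genes 14.7% and 10.8%. The ratio of large to small subunit UMIs was 1.30 in control and 1.32 in *Taf4IEC*, a log2 difference of 0.02 (0.02 to 0.02). Gene by gene the median log2 ratio was -0.41 over the 46 large subunit genes and -0.55 over the 31 small subunit genes without copies. Without *Rps2*, *Rps18* and *Rpl29* the log2 difference of large over small UMIs was 0.09.

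The P stalk of the large subunit, which recruits the elongation factors, is made of *Rplp0*, *Rplp1* and *Rplp2*. *Rplp0* was at 69.3 per 10000 UMIs in control and 49.8 in *Taf4IEC*, a log2 ratio of -0.48 (-0.49 to -0.47). *Rplp1* was at 70.2 and 44.1 (-0.67, -0.68 to -0.66) and *Rplp2* at 29.6 and 20.9 (-0.50, -0.51 to -0.48). All of them were lower, *Rplp1* by the most. As a group the stalk genes took 4.99% of ribosomal protein UMIs in control and 4.59% in *Taf4IEC*.

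Among small subunit genes, *Rpsa*, which also serves as the laminin receptor, was at 54.5 per 10000 UMIs in control and 33.1 in *Taf4IEC* (log2 ratio -0.72, -0.73 to -0.71) and was the lowest of the small subunit genes without copies. *Rps3*, a protein at the mRNA entry site that also acts in DNA repair, was at 55.5 and 37.8 (-0.55). *Rps6*, the substrate of the S6 kinases, was at 37.8 and 25.4 (-0.58), and *Rps19*, a gene mutated in Diamond-Blackfan anemia, at 64.6 and 44.2 (-0.55). *Rps27a*, which is made as a fusion with ubiquitin, was at 62.9 and 41.8 (-0.59), and the X-linked *Rps4x* at 55.7 and 36.0 (-0.63). The small zinc-binding proteins differed little from these, with *Rps27* at 25.4 and 17.3 (-0.56) and *Rps29* at 36.0 and 26.1 (-0.46). These 8 genes, named for their roles, had ratios from -0.72 to -0.46, while the 31 small subunit genes without copies ran from -0.72 to 0.92.

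The 46 large subunit genes without copies ran from -0.73 to 0.73. *Rpl12*, part of the base of the stalk, was at 56.4 per 10000 UMIs in control and 34.0 in *Taf4IEC*, with the lowest ratio of the 77 genes (-0.73, -0.74 to -0.72), next to *Rpl8*, near the peptidyl transferase centre, at 44.1 and 26.9 (-0.71). *Rpl5* and *Rpl11*, which can bind Mdm2 and so link ribosome assembly to p53, had nearly equal ratios, 35.9 and 27.1 (-0.41) for *Rpl5* and 42.0 and 31.9 (-0.40) for *Rpl11*. *Rpl3*, at the peptidyl transferase centre, was at 36.4 and 27.7 (-0.40), *Rpl22* at 26.0 and 19.0 (-0.45) and *Rpl39*, at the exit tunnel, at 39.99 and 29.8 (-0.42). *Rpl36a* was at 21.3 and 17.9 (-0.26). *Rpl13a* was at only 4.17 and 3.42 per 10000 (-0.29), the lowest level of the 77 genes. This gene has many processed pseudogenes, and reads shared with such copies may have been dropped or split in the counting, so its level is uncertain.

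A few large subunit genes had ratios near 0. *Rpl10*, which is placed last during subunit maturation, was at 27.4 per 10000 UMIs in control and 24.9 in *Taf4IEC* (-0.14, -0.15 to -0.12). *Rpl38*, known from mouse mutants for its part in translation of Hox mRNAs, was at 22.8 and 22.4 (-0.03, -0.04 to -0.01). *Rpl41*, the shortest ribosomal protein, was at 47.7 and 50.3 (0.08, 0.07 to 0.09). *Rpl41* thus made up a larger part of a lower total: the median cell of at least 2000 UMIs held 1.41% of its ribosomal protein UMIs as *Rpl41* in control and 2.02% in *Taf4IEC*. The level of this gene per 10000 UMIs was close to equal in the shallowest cells (51.5 and 51.3 at 500 to 999 UMIs).

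The copies were a minor part, with 0.559% of ribosomal protein UMIs in control and 0.603% in *Taf4IEC*. The expressed paralog *Rpl22l1* was at 10.3 per 10000 UMIs in control and 7.07 in *Taf4IEC* (log2 ratio -0.54), and *Rpl36al* at 3.67 and 4.06 (0.14, 0.11 to 0.18). *Rpl7l1* was at 0.960 and 0.868 (-0.14), *Rps27rt* at 1.18 and 0.756 (-0.64) and *Rps19bp1*, whose product binds *Rps19* and the deacetylase Sirt1, at 0.553 and 0.593 (0.10, 0.00 to 0.20). Of the pseudogene symbols, *Rps12-ps3* was at 0.292 and 0.155 (-0.92, -1.09 to -0.75), *Rpl9-ps6* at 0.291 and 0.176 (-0.72), *Rpl36a-ps1* at 0.649 and 0.483 (-0.43), *Rpl10-ps3* at 0.698 and 0.605 (-0.21) and *Rpl27-ps3* at 0.281 and 0.290 (0.05, -0.09 to 0.18). *Rpl7a-ps5* had 119 and 30 UMIs and *Rpl13a-ps1* 80 and 61, under the minimum of 200. Reads of such copies and of their parent genes cannot always be told apart, so these values are uncertain.

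The balance of *Rpl22* and its paralog differed between kinds of cells. Per 100 *Rpl22* UMIs there were 39.5 *Rpl22l1* UMIs in control and 37.2 in *Taf4IEC* over all cells. In stem-like cells (classes are defined below) the values were 44.6 and 43.5, and in enterocyte-like cells 24.0 and 33.9, so the paralog took a smaller part in enterocyte-like cells of each library. Per 100 *Rpl36a* UMIs there were 17.2 *Rpl36al* UMIs in control and 22.7 in *Taf4IEC*, and the value in *Taf4IEC* was the higher one in each of the 5 named classes.

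*Rps2*, *Rps18* and *Rpl29* stood apart from all other members. *Rps2*, a small subunit protein near the mRNA entry site, was at 25.6 per 10000 UMIs in control and 48.4 in *Taf4IEC* (log2 ratio 0.92, 0.90 to 0.93). *Rps18*, in the head of the small subunit, was at 26.3 and 47.2 (0.85, 0.83 to 0.86), and *Rpl29*, a large subunit protein also known to bind heparin, at 13.6 and 22.6 (0.73, 0.71 to 0.75). The next highest of the genes without copies were *Rpl27* and *Rpl41* at 0.08. The SD of the log2 ratios over the 77 genes was 0.31, and 0.19 without these 3. Together they took 1.94% of ribosomal protein UMIs in control and 4.73% in *Taf4IEC*.

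The difference in these genes was also present cell by cell. Among cells with at least 2000 UMIs, *Rps18* made up a median of 0.769% of a control cell's ribosomal protein UMIs (5th to 95th percentile 0.521% to 1.02%) and 1.88% in a cell of *Taf4IEC* (1.20% to 2.67%), so that these ranges did not overlap. For *Rps2* the medians were 0.735% and 1.75%, and for *Rpl29* 0.397% and 0.8999%, with ranges that overlapped. In pairs of 1 cell from each library, the cell of *Taf4IEC* had the higher part of *Rps18* in 99.2% of pairs, of *Rpl29* in 96.5% and of *Rps2* in 95.3%, against 45.1% for *Rplp0*. Among the other members the percentage ran from 19.3% for *Rps16* to 85.5% for *Rpl41*. The cells of a library share its preparation, so these percentages describe the 2 libraries. In the shallowest cells the trio was likewise higher, at 4.21% of ribosomal protein UMIs in *Taf4IEC* and 1.72% in control at 500 to 999 UMIs, and over the 7 depth bins it ranged from 4.14% to 4.80% and from 1.702% to 1.98%.

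*Rps2* and *Rps18* both lie on chromosome 17, at chr17:24718121-24721927 and chr17:33951998-33955665 of GRCm38.p6, and *Rpl29* at chr9:106428889-106431568. The chromosome holds 8 members in all, and of the others *Rpl10a* (-0.70), *Rps10* (-0.49), *Rpl36* (-0.24), *Rps28* (-0.15) and *Rpl7l1* (-0.14) had negative log2 ratios, and *Rpl7a-ps5* is the one under the minimum. *Rps2*, *Rps18* and *Rpl29* have pseudogene copies in the genome, and how the counting treated reads shared with them was not looked at here. With all 3 left out of the members, the ratio of the ribosomal protein share over all cells was -0.48.

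**Figure D3:**
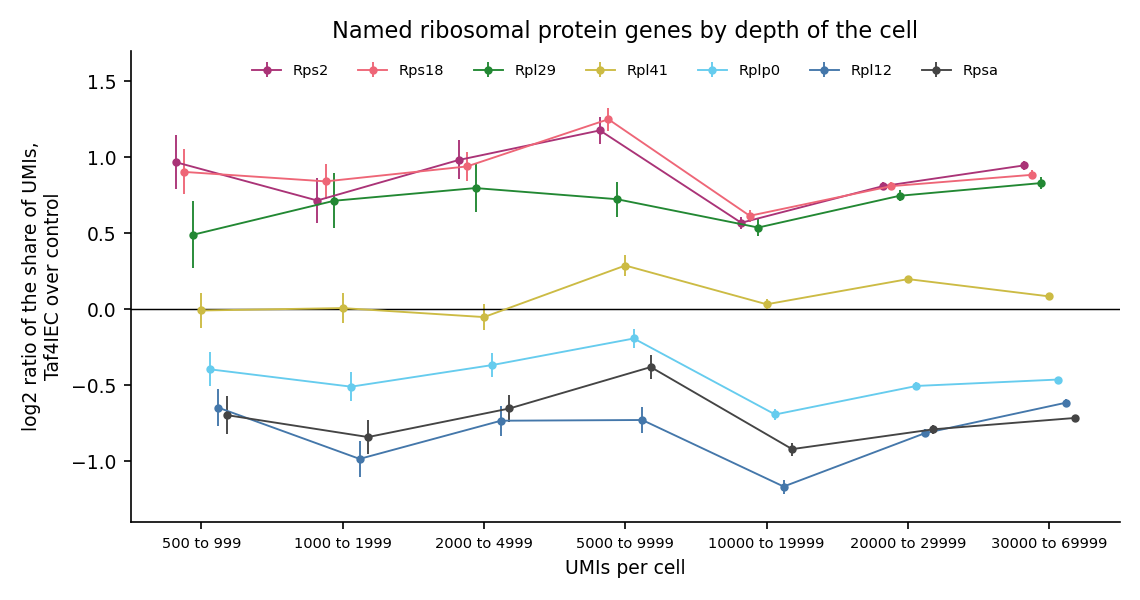
The log2 ratio of the share of UMIs, *Taf4IEC* over control, for 7 ribosomal protein genes by depth of the cell, with 95% intervals for counting error. *Rps2*, *Rps18* and *Rpl29* lie at 0.49 or higher in each bin, *Rpl41* lies between -0.05 and 0.29, and *Rplp0*, *Rpl12* and *Rpsa* lie below 0 in each bin.

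To see whether cell types differed, cells with at least 2000 UMIs were given a class from lists of markers, and the others stayed without one. The classes held, in control and *Taf4IEC*, 681 and 149 stem-like, 176 and 156 enterocyte-like, 43 and 41 Paneth-like, 115 and 104 goblet-like and 167 and 128 enteroendocrine-like cells, while 6 and 8 were tuft-like and 931 and 335 stayed unnamed. A class is a range of a marker score and not a sharp type: the best score of 21.1% of control and 12.8% of *Taf4IEC* cells lay within 20% of the minimum. Stem-like cells had a median of 29.0 and 32.0 UMIs of stem markers per 10000 and 4.93 and 5.50 of the enterocyte list, and enterocyte-like cells 196 and 191 of the enterocyte list. Paneth-like and goblet-like cells each carried much of the other list (in Paneth-like cells 257 and 482 per 10000 of the goblet list beside 414 and 649 of their own), so these classes were not sharply separate.

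In all of these classes the ribosomal protein share was lower in the library labelled *Taf4IEC*. It was 35.8% and 28.8% in stem-like cells (log2 ratio -0.31, -0.32 to -0.31), 33.8% and 25.7% in goblet-like cells (-0.39) and 32.2% and 24.5% in Paneth-like cells (-0.39, -0.40 to -0.38). Enterocyte-like cells had the lowest pooled shares, 20.1% and 17.1% (-0.23, -0.24 to -0.23), although by the median over cells enteroendocrine-like cells were the lowest in *Taf4IEC* (16.6% against 17.9%), and enteroendocrine-like cells differed most, at 28.8% and 18.6% (-0.63, -0.64 to -0.63). The unnamed cells were at 35.7% and 29.4%, close to the stem-like cells in each library. The ranges between the quartiles did not overlap in the stem-like, goblet-like and unnamed cells and overlapped in the enterocyte-like, enteroendocrine-like and Paneth-like cells. Beside this, the median level of enteroendocrine markers in their class was 89.4 per 10000 UMIs in control and 244 in *Taf4IEC*, and its part in the result was not tested. With all markers left out of the total, the log2 ratio was -0.60 in enteroendocrine-like, -0.29 in goblet-like and -0.28 in Paneth-like cells.

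**Figure D4:**
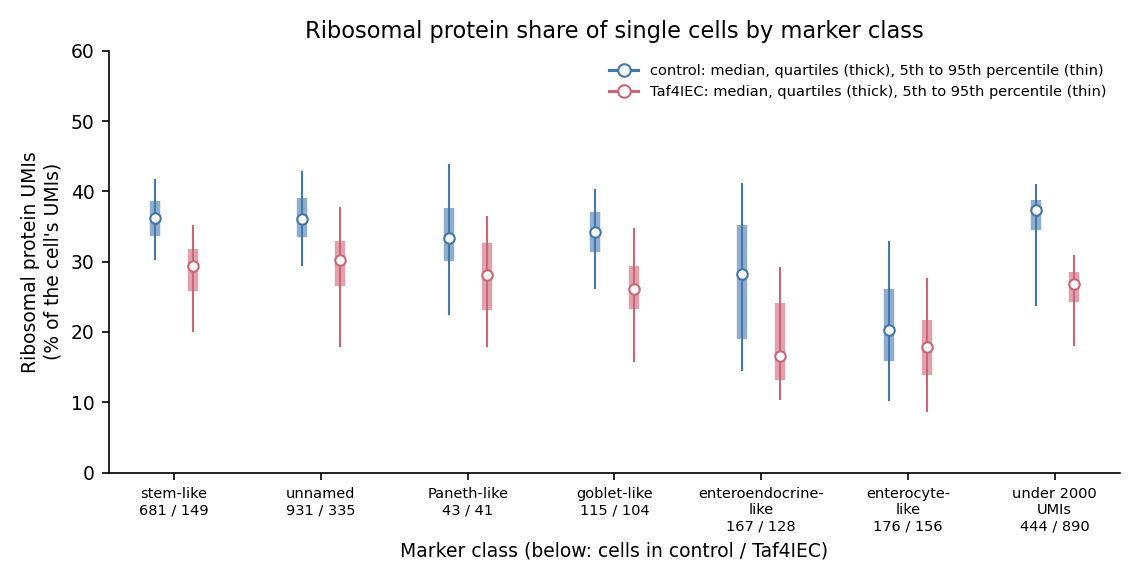
Ribosomal protein UMIs as a percent of each cell's UMIs, by marker class, for the control (blue) and *Taf4IEC* (red) libraries, with the median over cells (circle), the quartiles (thick bar) and the 5th to 95th percentiles (thin bar). Enterocyte-like cells have the lowest control median, 20.3%, and the red median is under the blue one in each class.

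Depth did not match between the libraries within classes (medians of 20462 and 28659 UMIs in stem-like and 21779 and 40947 in enterocyte-like cells). At 20000 to 29999 UMIs, 319 control and 33 *Taf4IEC* stem-like cells had shares of 35.3% and 28.8% (log2 ratio -0.29), and goblet-like cells 33.5% and 24.5% (-0.46). At 10000 to 19999 UMIs, 82 and 54 enteroendocrine-like cells had 30.3% and 18.2% (-0.73), whereas at 2000 to 4999 UMIs 18 and 14 of them had 22.5% and 20.5% (-0.14). Enterocyte-like cells at 30000 to 69999 UMIs had 18.2% in 14 control cells and 17.2% in 110 cells of *Taf4IEC* (-0.08). At 5000 to 9999 UMIs they had 21.7% in 10 and 20.8% in 10 cells (-0.06). At 2000 to 4999 UMIs they had 28.1% in 14 and 20.4% in 25 cells (-0.46). The difference in this class was thus not the same at all depths and was small in the first 2 of these bins.

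Within each library the share was lower in absorptive and endocrine cells than in stem-like cells. Relative to the stem-like cells of its own library, the log2 ratio of the share was -0.83 in control and -0.75 in *Taf4IEC* for enterocyte-like cells and -0.31 and -0.63 for enteroendocrine-like cells. Of the control enterocyte-like cells, 88.6% lay below the 5th percentile of the stem-like cells, and of those of *Taf4IEC* 64.7%. For goblet-like cells the ratios were -0.08 and -0.16 and for Paneth-like cells -0.15 and -0.23. With the genes of all marker lists left out of the total, the ratios of goblet-like cells became 0.01 and 0.03 and those of Paneth-like cells -0.01 and 0.03, whereas those of enterocyte-like cells were -0.80 and -0.72. The part of the marker genes in these ratios was not tested.

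In some classes the share was lower where the class's own markers were higher. When enterocyte-like cells were split into 3 equal parts by the level of their markers, with these left out of the total, the share went from 24.4% through 21.6% to 16.1% in control and from 21.4% through 17.7% to 13.7% in *Taf4IEC*. For enteroendocrine-like cells it went from 36.2% through 29.6% to 20.0% and from 23.3% through 17.9% to 15.6%. For stem-like cells it went from 35.3% through 35.8% to 36.6% in control and from 29.3% through 28.5% to 28.9% in *Taf4IEC*, and for goblet-like cells from 35.2% through 36.2% to 35.6% and from 28.6% through 29.3% to 27.3%. The share was thus lower at each step in enterocyte-like and enteroendocrine-like cells of each library, slightly higher at each step in control stem-like cells, and without one order in the others. Depth also fell along the parts of the enteroendocrine-like cells, with median UMIs of 12584, 9715 and 8644 in control and 19524, 15286 and 12499 in *Taf4IEC*. In enterocyte-like cells the medians were 20841, 21192 and 23176 in control and 40847, 40705 and 41919 in *Taf4IEC*. The part of depth in these shares was not tested.

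Cells with high levels of cell cycle genes had slightly lower shares. Among stem-like cells, the share was 33.8% in 193 control cells with a high level of G2/M genes and 36.7% in the other 488 (log2 ratio -0.12), and 25.8% in 31 and 29.4% in 118 cells of *Taf4IEC* (-0.19). For genes of S phase the log2 ratios were -0.03 and -0.07. Depth differed as well. Stem-like cells high in G2/M genes had a median of 24950 UMIs in control beside 19416 in the others, and 25678 beside 28881 in *Taf4IEC*. For S phase the control medians were 23007 and 18042, and cells high in it were deeper in *Taf4IEC* too. The part of depth in these ratios was not tested.

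Gene by gene, most members had a lower share in *Taf4IEC* in each class. In stem-like cells 74 of 87 members were below 0 (27.4% of all genes with the minimum in these cells), in enterocyte-like cells 74 of 84 (50.3%), in Paneth-like cells 71 of 79 (50.6%), in goblet-like cells 74 of 84 (41.3%), in enteroendocrine-like cells 77 of 82 (25.2%) and in unnamed cells 75 of 87 (37.1%). The median log2 ratio of the members was -0.32 in stem-like, -0.25 in enterocyte-like, -0.44 in Paneth-like, -0.39 in goblet-like, -0.66 in enteroendocrine-like and -0.29 in unnamed cells. Over these 6 sets of cells *Rps2* had log2 ratios from 0.86 in enteroendocrine-like to 1.26 in enterocyte-like cells, *Rps18* from 0.62 to 1.09 and *Rpl29* from 0.59 to 0.88. In stem-like cells *Rps2* stood at 29.9 per 10000 UMIs in control and 66.7 in *Taf4IEC*, and in enterocyte-like cells at 12.2 and 29.1. *Rps2* was therefore lower in enterocyte-like than in stem-like cells of each library, and higher in *Taf4IEC* within each class.

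Set against the remaining cells of its own library that reached 2000 UMIs, all 84 members with at least 200 UMIs in enterocyte-like cells were lower there, in control and in *Taf4IEC* alike (41.2% and 51.8% of all genes were lower). The medians were -0.77 and -0.69, and those of all genes 0.18 and -0.03. The lowest were *Rpl3*, with log2 ratios of -1.47 in control and -1.06 in *Taf4IEC*, *Rpsa* (-1.37 and -1.07) and *Rpl22l1* (-1.51 and -0.84). The nearest to the other cells were *Rpl38* (-0.39 and -0.43), *Rpl10-ps3* (-0.45 and -0.29) and *Rps19bp1* (-0.21 and -0.48). The members thus did not differ by one common factor, and their order was much alike in the libraries (Pearson's r 0.82 and Spearman's rho 0.85 across the 84 members, which share the cells of a library and its total).

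In enteroendocrine-like cells 75 of 82 members in control and 81 in *Taf4IEC* were lower than in the other cells (34.0% and 28.8% of all genes), with medians of -0.25 and -0.45 beside 0.30 and 0.42 for all genes. The lowest were *Rpl22l1* (-0.93 and -0.88), *Rps2* (-0.85 and -0.94) and *Rplp1* (-0.68 and -0.93), and the highest *Rpl37a* (0.16 and 0.01), *Rps21* (0.02 and -0.09) and *Rpl26* (0.06 and -0.13). *Rplp1* and *Rpl37a*, both of the large subunit, were thus at opposite ends of the order.

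In stem-like cells 4 of 87 members in control and 3 in *Taf4IEC* were lower (38.8% and 32.5% of all genes), with medians of 0.14 and 0.25, close to those of all genes in these cells (0.11 and 0.24). *Rpl7l1* (0.46 and 0.82), *Rpl22l1* (0.43 and 0.59) and *Rps2* (0.35 and 0.55) were the highest, and *Rpl9-ps6* (-0.02 and -0.01), *Rps24* (-0.03 and 0.03) and *Rpl23* (0.02 and 0.01) the lowest. *Rps2* and *Rpl22l1* were thus at the top of the order in stem-like cells and near the bottom in enteroendocrine-like cells.

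In goblet-like cells 46 of 84 members in control and 30 in *Taf4IEC* were lower (55.1% and 56.2% of all genes), and in Paneth-like cells 65 of 79 and 53 (65.0% and 60.6%). By the mean over both libraries *Rpl10* was the highest in each of these classes, with log2 ratios of 0.41 and 0.37 in goblet-like and 0.42 and 0.40 in Paneth-like cells, followed by *Rpl41* in Paneth-like cells (0.15 and 0.37) with *Rps24* (0.15 and 0.18), and in goblet-like cells by *Rpl10-ps3* (0.46 and 0.07) and *Rpl41* (0.22 and 0.30). The lowest in goblet-like cells were *Rpl7l1* (-0.63 and -0.19), *Rps19bp1* (-0.29 and -0.37) and *Rps2* (-0.33 and -0.23), and among the low ones in Paneth-like cells were *Rpl13a* (-0.40 and -0.12) and *Rpl23a* (-0.28 and -0.23). *Rpl10* and *Rpl41* were thus high in both of these classes, whose marker lists overlapped in the cells as given above. *Rpl41* was also higher in stem-like cells (0.13 and 0.31). In enteroendocrine-like cells *Rpl10* was at 0.12 and -0.22.

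**Figure D5:**
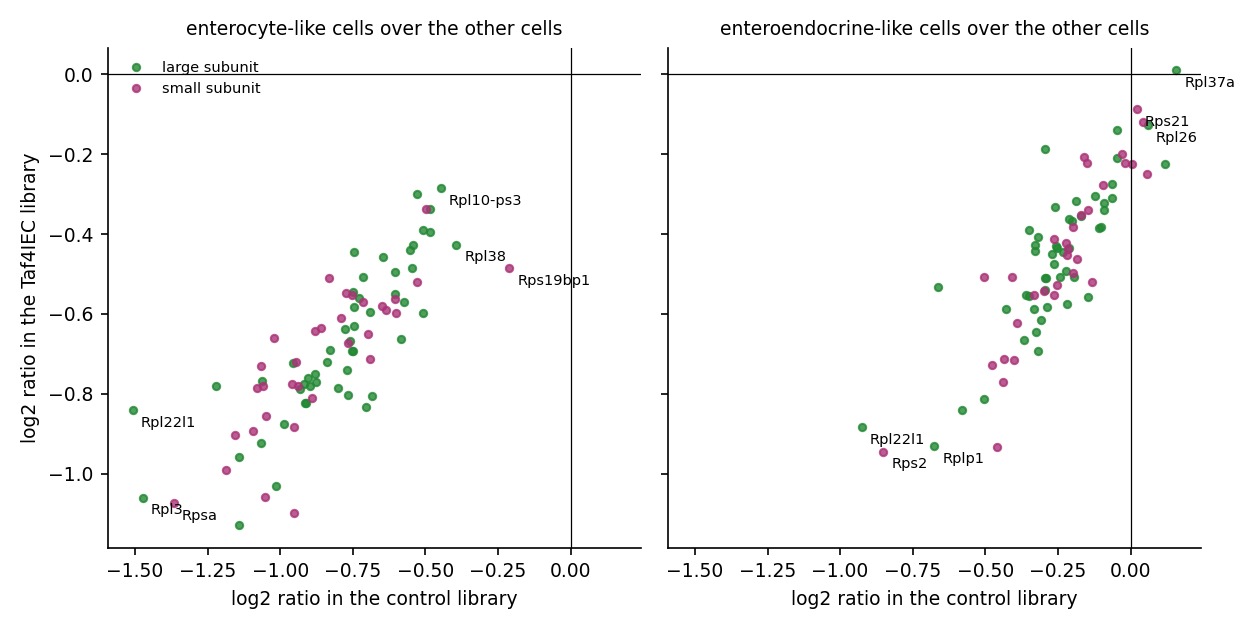
Each point is a ribosomal protein gene, with the log2 ratio of its share in enterocyte-like (left) or enteroendocrine-like (right) cells over the other cells of at least 2000 UMIs, in control (x axis) and *Taf4IEC* (y axis). All 84 points of the left panel lie below 0 on both axes, and *Rpl22l1*, *Rps2* and *Rplp1* are the lowest labelled points on the right.

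Other genes of the ribosome and of translation were compared from lists. Of the ribosomal proteins with other symbols, *Fau*, a fusion of a ubiquitin-like protein with a small subunit protein, was at 59.7 per 10000 UMIs in control and 48.2 in *Taf4IEC* (log2 ratio -0.31), and *Rack1*, a scaffold on the small subunit, at 42.5 and 26.9 (-0.66). Among 15 elongation factors and other genes known for a TOP motif 14 were below 0 (34.7% of all genes were), with a median of -0.38 beside -0.45 for the members. *Eef1a1*, the main elongation factor, was at 94.7 and 70.5 (-0.43), *Eef1b2* at 33.4 and 22.1 (-0.60) and *Naca*, a chaperone at the ribosome, at 21.6 and 15.1 (-0.51), while *Eef2*, the translocation factor, was at 10.9 and 11.2 (0.04).

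By the median over genes, the ribosome biogenesis and RNA polymerase I lists had ratios nearer to 0 than the members. Summed over UMIs of all cells this was not so for the biogenesis list. Its log2 ratio was -0.41, beside -0.37 for the elongation and TOP list and -0.44 for the members. Of 20 ribosome biogenesis genes 16 were below 0, against 34.7% of all genes, with a median of -0.19. The nucleolar *Npm1* was at 20.4 per 10000 UMIs in control and 14.0 in *Taf4IEC* (-0.54), fibrillarin (*Fbl*), which methylates ribosomal RNA, at 1.64 and 1.06 (-0.62), and *Nop10* at 2.45 and 2.63 (0.10). Of 11 genes of RNA polymerase I and its factors, which transcribe the ribosomal RNA, 7 were below 0 (34.7% of all genes), with a median of -0.06. *Polr1a*, its largest subunit, was at 0.174 and 0.146 (-0.25, -0.44 to -0.07), and the initiation factor *Rrn3* at 0.117 and 0.160 (0.45, 0.25 to 0.65). Of 77 mitochondrial ribosomal proteins with the minimum, 34 were below 0, a larger share than the 34.7% of all genes. Their median was 0.04 beside 0.16 for all genes. Of 7 host genes of small nucleolar RNAs 2 were measured, *Snhg6* at 1.59 and 1.10 (-0.52) and *Snhg12* at 0.635 and 0.297 (-1.09).

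For the biogenesis list the value over all cells and that within classes differed. Its summed level over all cells was 39.5 per 10000 UMIs in control and 29.6 in *Taf4IEC* (log2 ratio -0.41), but in stem-like cells it was 51.5 and 53.0 (0.04) and in enterocyte-like cells 11.5 and 10.96 (-0.07). It was lower in Paneth-like (-0.29), enteroendocrine-like (-0.21), unnamed (-0.16) and goblet-like cells (-0.15), in each case by less than over all cells. Stem-like cells were 681 of the 2119 control and 149 of the 921 *Taf4IEC* cells deep enough to take a class. The elongation and TOP list was lower within classes too, at 303 and 239 per 10000 UMIs in stem-like cells (-0.34) and 281 and 197 in enteroendocrine-like cells (-0.51), so in stem-like cells it was lower together with the members while the biogenesis list was not. The sum over mitochondrial ribosomal proteins was 79.5 and 92.3 per 10000 UMIs in stem-like cells (0.22), and it was also higher in unnamed (0.14) and enteroendocrine-like cells (0.12) but lower in enterocyte-like (-0.09), Paneth-like (-0.08) and goblet-like cells (-0.08).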

How the data were processed

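Single-cell RNA of 1 control and 1 *Taf4IEC* enteroid library was analysed. The authors deposited raw UMI counts, with genes in rows and cells in columns. They demultiplexed with bcl2fastq 2.17.1.14, counted against mm10 with Cell Ranger 3.1 and filtered with Seurat 3.1.4, per the labels and the methods, by the number of genes and the mitochondrial share of a cell (272 to 4999 and 269 to 5997 genes per cell remain in the tables). The methods state one range of genes per cell for the data, whereas the highest values of the libraries differ. Whether control had a lower upper cut is not given, and its part in the deep bins was not tested. No normalization had been applied. Whether a read shared by near-identical copies was dropped or split is not given in the sources used here.

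Shares are UMIs of a gene or list over all UMIs of the cells compared, and levels are per 10000 UMIs, computed with scipy 1.17.1, pandas 2.3.3 and numpy 2.4.6 under Python 3.11.15 and plotted with matplotlib 3.10.9. Levels have exact Poisson and log2 ratios exact conditional binomial 95% intervals. The steps were tested on simulated data. Only genes that reached 200 UMIs in the cells compared were ranked and counted. With 1 library a group there was no test and no pairing.

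A cell of at least 2000 UMIs took the class whose markers had the highest mean level relative to their mean over both libraries (each capped at 10 times), if that score was at least 1.5 and 3 markers had a UMI. This scoring was set after the data were seen. Doublets were not called, and 1 alternative leaves out the deepest 2% of cells. Cells that met the same score on the G2/M or S phase list were called high in it. The members, the lists and the rule for named genes were chosen with earlier results of these data known. The rule names members by role, each copy, the 5 highest and 5 lowest ratios, the 3 highest and 3 lowest of each class, *Taf4* and genes of the lists. The trio *Rps2*, *Rps18* and *Rpl29* was set apart after its values were seen. Promoters and gene positions are from RefSeq tables of GRCm38.p6. A few genes that the rule names are not reported here.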

Additional observations from a re-analysis of the deposited data

Results flagged for a closer look

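A few members had a higher share in the library labelled *Taf4IEC* in 1 class of cells and a lower share in another, with both counting intervals clear of 0. The difference between the classes was not tested, since each class has 1 library per group. *Rpl22l1* had a log2 ratio, *Taf4IEC* over control, of 0.18 in enterocyte-like and -0.48 in enteroendocrine-like cells, and *Rpl3* of 0.11 and -0.42 in the same classes. *Rpl35* was at 0.0804 in goblet-like and -0.23 in enteroendocrine-like cells, and *Rps28* at 0.0864 in stem-like and -0.31 in enteroendocrine-like cells. *Rps19bp1*, whose product binds *Rps19*, was at 0.35 in stem-like and -0.74 in Paneth-like cells, the latter from 41 and 27 UMIs. The median over all members also differed between classes. It was -0.66 in enteroendocrine-like, -0.44 in Paneth-like, -0.39 in goblet-like, -0.32 in stem-like and -0.25 in enterocyte-like cells. *Rpl22l1*, *Rpl3*, *Rpl35* and *Rps28* lay above the class median in both classes given, whereas *Rps19bp1* lay above it in stem-like and below it in Paneth-like cells.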

How the results depend on the processing

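The lower ribosomal protein share in *Taf4IEC* kept its direction in all 53 values recomputed over all cells, depth bins and classes, which ran from -0.67 to -0.20. These values are not independent. They include medians over the classes, which repeat values of single classes, and only the median for the depth bins. The class median for cells of at least 2000 UMIs could not change, since classes need that depth. Depth bins within a class are not among them. In these, enterocyte-like cells were at -0.06 (5000 to 9999 UMIs) and -0.08 (30000 to 69999 UMIs). Over all cells the log2 ratio (-0.44) was -0.42 with mitochondrial genes, *Gm42418*, *AY036118* and *Malat1* out of the total, -0.42 with every cell given equal weight, -0.44 with cells thinned to 1000 UMIs, -0.42 without the deepest 2% of cells and -0.41 without cell type markers in the total. Leaving out *Rps2*, *Rps18* and *Rpl29*, chosen after seeing the data, gave -0.48. The median over the 5 named classes (-0.39) was -0.34 with equal weight, -0.34 after thinning, -0.29 without markers, -0.37 with a score minimum 1.5 times higher and -0.43 without the trio. The median over depth bins (-0.44) was -0.42 without mitochondrial and the other named genes and -0.48 without the trio. The large over small ratio (0.02) was 0.0256 with equal weight and 0.0860 without the trio. Members with a higher share numbered 7 to 11 (8 in the report). On the same 87 members they were 11 with equal weight and 10 after thinning, so some members changed sign. The 28 ratios recomputed for single members were those of *Rps2*, *Rps18*, *Rpl29*, *Rpl12*, *Rpsa*, *Rplp0* and *Rpl41* only, and none of these changed sign.

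Thinning left out 8.43% of control and 36.4% of *Taf4IEC* cells. With 1 library per group the spread between enteroids is unknown, and the groups cannot be told apart from their libraries. No paired analysis was possible because no result comes from a test. Classes of 43 and 41 Paneth-like cells limit what can be said of single members there.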
